A study of Danio rerio with 15 samples.

Results

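The feedback and ETS output genes of the MAPK pathway were followed in a zebrafish (Danio rerio) melanoma model. They are 5 genes: dusp4, spry4 and il17rd, which encode feedback inhibitors, and etv4 and etv5b, which encode ETS transcription factors. They were chosen by gene symbol, with earlier results of these data known. Each was measured by 1 probe set with a single gene symbol in the platform annotation, which gave 5 probe sets of the 15502 tested, or 5 of 8793 genes with such a probe set. Total RNA was extracted with Trizol from tissue of fish 4 to 8 months old and hybridised to Affymetrix zebrafish arrays, 1 array per sample. Of the 15 arrays, 6 were of melanomas of the genotype mitf-BRAFV600E;p53-/-, 6 were of skin next to a melanoma in fish of that same genotype (called mutant skin here), and 3 were of wild-type skin, whose genotype is labelled Tu. The melanomas and the mutant skin therefore share the BRAF transgene under the mitf promoter and the p53 mutation, and the wild-type skin has neither. The wild-type skin was also cut differently, along the flank and not beside a tumour. The mitf promoter is active in the pigment cell lineage, so the transgene is not driven in every cell of a skin piece. The labels do not say whether arrays came from separate fish, and if they did not, the p-values would measure only the spread between these samples, which may be technical.

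In the MAPK pathway, an activated receptor switches on RAS, which recruits RAF kinases. These phosphorylate MEK, and MEK phosphorylates ERK. The V600E form of BRAF signals without RAS, and it is the most common BRAF mutation of human melanoma. Active ERK raises the transcription of genes that shut the pathway down again, among them dual-specificity phosphatases and Sprouty proteins, and of ETS factors of the PEA3 group. In zebrafish embryos these same genes are known as readouts of FGF signalling, which runs through ERK. Their transcripts are for this reason widely read as a measure of pathway output.

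Against mutant skin, 4 of the 5 genes rose in melanoma and 1 fell. dusp4 rose 13.0-fold, etv4 10.4-fold, spry4 7.90-fold and etv5b 5.21-fold, while il17rd fell to 0.284 times its level in mutant skin. Over all probe sets tested, 6.44% were raised and 4.35% lowered in this comparison by the same test (limma, Benjamini-Hochberg adjusted p under 0.05). The median log2 change was 2.98 over the 5 probe sets and 0.0032 over all probe sets tested. Since the 5 genes were chosen with earlier results of these data known, setting them beside all probe sets is a description and not a test. Against wild-type skin, dusp4, etv4 and etv5b rose, il17rd fell and spry4 did not pass the test. There 7.46% of all probe sets were raised and 6.36% lowered, and the median log2 change was 3.11 over the 5 probe sets and -0.13 over all. Between mutant skin and wild-type skin, none of the 5 passed the limma test and 1, etv4, had an unadjusted p under 0.05. In that comparison 0.0258% of all probe sets were raised and 0.168% lowered, which is 4 and 26 probe sets, and 1112 had an unadjusted p under 0.05. The same melanoma arrays enter both tumour comparisons, so these are not independent of each other.

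**Figure D1:**
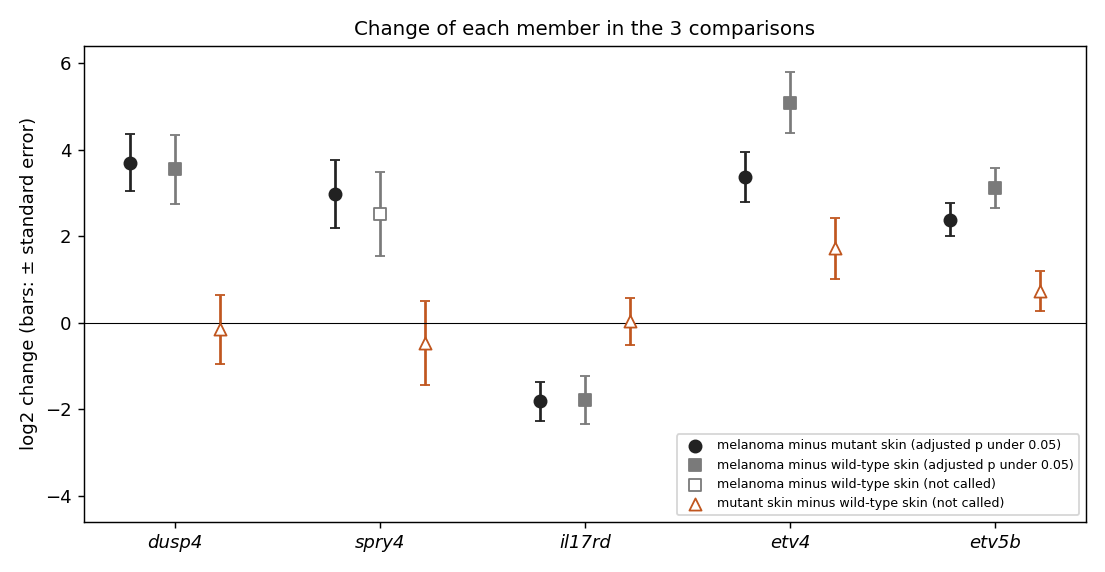
Log2 change of each of the 5 genes (points, with bars of ± 1 standard error) for melanoma minus mutant skin (circles), melanoma minus wild-type skin (squares) and mutant skin minus wild-type skin (triangles); filled symbols had an adjusted p under 0.05. Changes against mutant skin lie between 2.38 and 3.70 for the 4 raised genes and at -1.82 for il17rd, and all triangles are open.

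The values are on a log2 scale whose zero differs by probe set and is not stated, so they show differences between arrays and not which of the genes is the most abundant. Each sample is a piece of tissue, and fewer cells of a type cannot be told apart from less RNA per cell. The labelled tissues were checked against marker genes. The mean level of 7 measured melanocyte genes, as the difference from the mean over all arrays, was 2.75 to 3.12 in melanoma 1 to 5 and 0.71 in melanoma 6, against -2.49 to -0.08 in mutant skin and -2.52 to -2.15 in wild-type skin. The mean level of 22 keratinocyte genes was -2.50 to -0.59 in melanoma, against -1.52 to 1.72 in mutant skin and 0.45 to 1.53 in wild-type skin. The marker list that differed most between tumour and skin was skeletal muscle, where the mean level of 21 genes was -4.75 to -2.83 in melanoma 1 to 5 and 0.83 in melanoma 6, against -0.18 to 2.99 in mutant skin and 2.26 to 3.17 in wild-type skin. It moved with the melanoma comparisons of all 5 genes, and its part in them was not tested. Oocyte transcripts were high in 7 arrays. The mean level of 26 oocyte genes was 4.03 in melanoma 6, between 0.53 and 4.61 in mutant skin 1, 2, 4 and 6, and 3.91 and 1.56 in wild-type skin 1 and 2. It was -3.2 to -1.69 in the other 8 arrays. Melanoma 6 thus stood apart from the other melanomas, with fewer melanocyte transcripts and more oocyte, liver and muscle transcripts, and the changes of the 5 genes are also given without it below.

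The feedback phosphatase gene had the largest change of the 5 against mutant skin. DUSP4 is a nuclear phosphatase that removes phosphate from ERK and other MAP kinases. The log2 values of dusp4 (NCBI gene ID 394146) ran between -0.52 and 2.19 in the 6 melanomas, with a median of 1.42. In the 6 mutant skin arrays they ran between -4.13 and -0.07, with a median of -2.87, and the 3 wild-type skin arrays had -1.57, -2.99 and -2.51. All melanomas lay above all wild-type skin, and only melanoma 6 (-0.52) and mutant skin 2 (-0.07) crossed between tumour and adjacent skin. The mean was 1.19 ± 1.07 in melanoma (SD, n = 6), -2.51 ± 1.49 in mutant skin (SD, n = 6) and -2.36 ± 0.72 in wild-type skin (SD, n = 3). The log2 change was 3.70 ± 0.65 (SE) against mutant skin (limma adjusted p = 0.00405) and 3.55 ± 0.80 against wild-type skin (limma adjusted p = 0.00997). The second call rested on the wild-type arrays: without wild-type skin 2 its limma adjusted p was 0.0625 and without wild-type skin 3 it was 0.0511. Mutant and wild-type skin differed by -0.15 ± 0.80 (limma adjusted p = 0.999), less than the spread within either group.

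SPRY4 is a Sprouty protein, a membrane-associated inhibitor that acts between receptors and RAF. In zebrafish embryos spry4 is switched on by FGF signalling and damps it. The log2 values of spry4 (NCBI gene ID 114437) ran between -0.71 and 3.13 in melanoma, with a median of 1.79, and between -4.55 and -0.17 in mutant skin, with a median of -0.94. Wild-type skin had -2.31, -0.39 and -0.02, so the lowest of the 3 wild-type arrays and the lowest of the mutant skin arrays, mutant skin 6, lay far under their groups. The lowest array of each group was wild-type skin 1, mutant skin 6 or melanoma 6, with oocyte levels of 3.91, 4.61 and 4.03. Melanoma 6 lay within the range of both kinds of skin, and the other melanomas, from 0.66 upwards, lay above all skin arrays. The mean was 1.61 ± 1.48 in melanoma (SD, n = 6), -1.37 ± 1.59 in mutant skin (SD, n = 6) and -0.91 ± 1.23 in wild-type skin (SD, n = 3). The log2 change against mutant skin was 2.98 ± 0.79 (limma adjusted p = 0.0270). This call was lost without melanoma 2, 4 or 5 (limma adjusted p = 0.0666, 0.0591 and 0.0678), and with the oocyte level of each array as a covariate the change was 1.97 (limma adjusted p = 0.0637). Oocyte transcripts were high in 4 of 6 mutant skin arrays and 1 of 6 melanomas, so this covariate is not separate from the group. The part of oocyte transcripts in the spry4 values was not otherwise tested. The log2 change against wild-type skin was 2.52 ± 0.97 (limma adjusted p = 0.100) and passed the test without melanoma 6 (2.98, limma adjusted p = 0.0312) or without mutant skin 6 (limma adjusted p = 0.0368). The log2 difference between mutant skin and wild-type skin was -0.46 ± 0.97 (limma adjusted p = 0.989).

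IL17RD, also called SEF, is a transmembrane protein that inhibits signalling from FGF receptors to ERK, and in zebrafish embryos its gene is expressed where fgf8 is. It moved against the other inhibitors. The log2 values of il17rd (NCBI gene ID 171474) were -1.48, -1.48, -2.0, -1.37, -1.42 and 0.90 in melanoma 1 to 6. They ran between -0.10 and 1.69 in mutant skin, with a median of 0.60, and were 1.22, 0.24 and 0.47 in wild-type skin. Melanoma 1 to 5 lay within a narrow band below all skin arrays, and melanoma 6 lay within the range of the skin. The mean was -1.14 ± 1.03 in melanoma (SD, n = 6), 0.67 ± 0.65 in mutant skin (SD, n = 6) and 0.64 ± 0.51 in wild-type skin (SD, n = 3). The log2 change was -1.82 ± 0.45 against mutant skin (limma adjusted p = 0.0196), and without melanoma 6 it was -2.22. With the oocyte level of each array as a covariate it was -1.15 ± 0.35 (limma adjusted p = 0.0363). The change was -1.79 ± 0.55 against wild-type skin (limma adjusted p = 0.0438), a call that was lost when any of 11 of the 15 arrays was left out, with adjusted p up to 0.150, and that held without melanoma 6 (-2.19, limma adjusted p = 0.00140). The levels in mutant and wild-type skin differed by 0.03 ± 0.55 on the log2 scale (limma adjusted p = 0.999). The keratinocyte level was lower in all 6 melanomas than in all skin arrays but mutant skin 2. In melanoma 6 a keratinocyte level of -0.85 stood beside an il17rd value of 0.90, and in mutant skin 2 a level of -1.52 stood beside 1.1. Both arrays also had high oocyte levels (4.03 and 4.13). il17rd was highest in mutant skin 6, wild-type skin 1, mutant skin 2 and melanoma 6, which also had the highest oocyte levels. Apart from the covariate fit above, the part of oocyte transcripts in the il17rd values was not tested. The part of keratinocyte transcripts in the fall of il17rd was not tested.

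**Figure D2:**
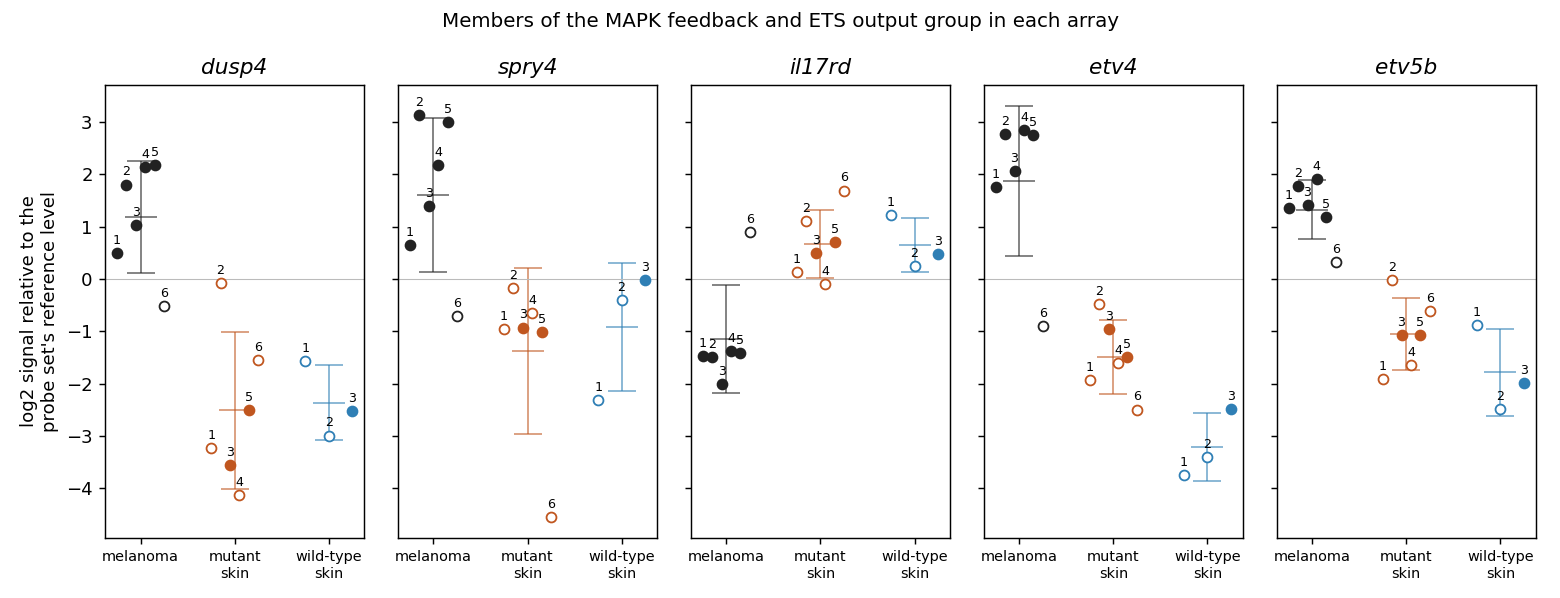
Log2 value (y axis) of each of the 5 genes in every array, with melanoma left of mutant skin and wild-type skin; points are arrays numbered by replicate, open points are the arrays with high oocyte transcripts, and bars show the group mean ± SD. Melanoma 6 lies below the other melanomas for dusp4, spry4, etv4 and etv5b and above them for il17rd.

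ETV4 and ETV5 are PEA3-group ETS factors, which bind DNA at ETS sites and act as transcriptional activators downstream of ERK. The log2 values of etv4 (NCBI gene ID 30700) were 1.77, 2.77, 2.06, 2.84, 2.75 and -0.90 in melanoma 1 to 6. They ran between -2.49 and -0.48 in mutant skin, with a median of -1.55, and were -3.74, -3.39 and -2.49 in wild-type skin. All 6 melanomas lay above all wild-type skin, and melanoma 1 to 5 above all mutant skin. The mean was 1.88 ± 1.43 in melanoma (SD, n = 6), -1.49 ± 0.71 in mutant skin (SD, n = 6) and -3.21 ± 0.65 in wild-type skin (SD, n = 3). The log2 change was 3.37 ± 0.58 against mutant skin (limma adjusted p = 0.00348). Against wild-type skin it was 5.09 ± 0.70, or 34.1-fold (limma adjusted p = 0.000948), and 98.9% of all probe sets had a smaller absolute change there.

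Of the 5 genes, etv4 was the one whose 2 skin groups stood furthest apart. Its log2 level was 1.72 ± 0.70 higher in mutant skin than in wild-type skin, with an unadjusted p of 0.0280 and a limma adjusted p of 0.587, so it did not pass the test. Of the 6 mutant skin arrays 5 lay above all 3 wild-type arrays, and mutant skin 6 (-2.49) was level with the highest of them. Over all probe sets, 1.50% had mutant skin wholly above wild-type skin and 1.61% wholly below. This is a stricter division, which etv4 did not meet, and the share with 5 of 6 arrays above was not counted. With array quality weights, which gave wild-type skin 2 a weight of 56.5 and so rested the wild-type level on nearly that array alone, etv4 (1.82) and etv5b (1.15) passed the limma test in this comparison (adjusted p = 0.00211 and 0.00873). Calls were far more common with these weights. Over all probe sets tested, 897 were raised and 1022 lowered, against 4 and 26 without weights.

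The log2 values of etv5b (NCBI gene ID 30452) ran between 0.32 and 1.91 in melanoma, with a median of 1.39, and between -1.90 and -0.01 in mutant skin, with a median of -1.07. Wild-type skin had -0.87, -2.49 and -1.98. It was the only one of the 5 genes whose melanomas, melanoma 6 included, all lay above every skin array. The mean was 1.33 ± 0.56 in melanoma (SD, n = 6), -1.05 ± 0.69 in mutant skin (SD, n = 6) and -1.78 ± 0.83 in wild-type skin (SD, n = 3). The log2 change was 2.38 ± 0.38 against mutant skin (limma adjusted p = 0.00282) and 3.11 ± 0.46 against wild-type skin (8.64-fold, limma adjusted p = 0.00120). Mutant skin was 0.73 ± 0.46 above wild-type skin on the log2 scale (limma adjusted p = 0.898).

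The group means of etv4 and etv5b thus ran in the order melanoma, mutant skin, wild-type skin, and the step between the skin groups did not pass the limma test on all 15 arrays without weights. For dusp4, spry4 and il17rd the means of mutant and wild-type skin differed by less than the spread within either group. Against mutant skin, 1 of the 5 genes had melanomas wholly above, where 1.40% of all probe sets lay wholly above and 0.961% wholly below. Against wild-type skin 3 genes (dusp4, etv4 and etv5b) lay wholly above, where 7.59% of all probe sets lay wholly above and 8.37% wholly below.

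Much of the spread among the melanomas came from melanoma 6. Without it, the mean of melanoma 1 to 5 was 1.53 ± 0.74 for dusp4, 2.07 ± 1.06 for spry4, -1.55 ± 0.25 for il17rd, 2.44 ± 0.49 for etv4 and 1.53 ± 0.30 for etv5b (SD, n = 5 each). The log2 change against mutant skin was then 4.04 for dusp4, 3.45 for spry4, -2.22 for il17rd, 3.93 for etv4 and 2.58 for etv5b. Against wild-type skin it was 3.89 for dusp4, 2.98 for spry4, -2.19 for il17rd, 5.65 for etv4 and 3.31 for etv5b, and all 10 changes passed the limma test. The 4 raised genes lay above, and il17rd below, every array of mutant skin and of wild-type skin. This division was examined after the data were seen, and it is common without melanoma 6: against mutant skin 8.00% of all probe sets lay wholly above and 4.23% wholly below, and against wild-type skin 15.6% and 13.7%. The shares called against mutant skin without melanoma 6 were 12.9% raised and 7.08% lowered. Against wild-type skin 1841 of all probe sets were raised and 1256 lowered without melanoma 6, against 1157 and 986 with it. In melanoma 6 itself mitfa, the master regulator gene of the melanocyte lineage, had a log2 value of -0.40, against 2.28 to 3.36 in melanoma 1 to 5. The part of these transcripts in the member values of melanoma 6 was not tested.

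Among the mutant skin arrays, mutant skin 2 had the highest dusp4 (-0.07), spry4 (-0.17), etv4 (-0.48) and etv5b (-0.01). It also had the highest melanocyte level of any skin array (-0.08), the lowest keratinocyte level of the skin arrays (-1.52) and an oocyte level of 4.13. At the other end, mutant skin 6 had the lowest spry4 and etv4 of its group and the highest il17rd (1.69), with an oocyte level of 4.61. Mutant skin 5 had the next highest melanocyte level (-0.79) after mutant skin 2, and its mitfa was -1.49, against -1.54 there. The melanocyte genes dct, sox10 and tyr were lower in mutant skin 5 (-1.49, -2.20 and -1.76) than in mutant skin 2 (-0.53, -1.71 and 0.73). In mutant skin 5 dusp4 (-2.51), etv4 (-1.49) and etv5b (-1.07) lay inside the range of the other mutant skin arrays. Its spry4 (-1.0) was above only that of mutant skin 6. The part of melanocyte transcripts in the values of mutant skin 2 and 5 was not tested. With all 7 arrays of high oocyte transcripts left out, which leaves 5 melanomas and 2 mutant skin arrays, the log2 change against mutant skin was 4.57 for dusp4, 3.04 for spry4, -2.15 for il17rd, 3.66 for etv4 and 2.6 for etv5b. All 5 passed the limma test in that setting (spry4 adjusted p = 0.0130). Calls were also more common there. Over all probe sets tested, 1436 were raised and 1518 lowered, against 998 and 675 with no array left out.

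**Figure D3:**
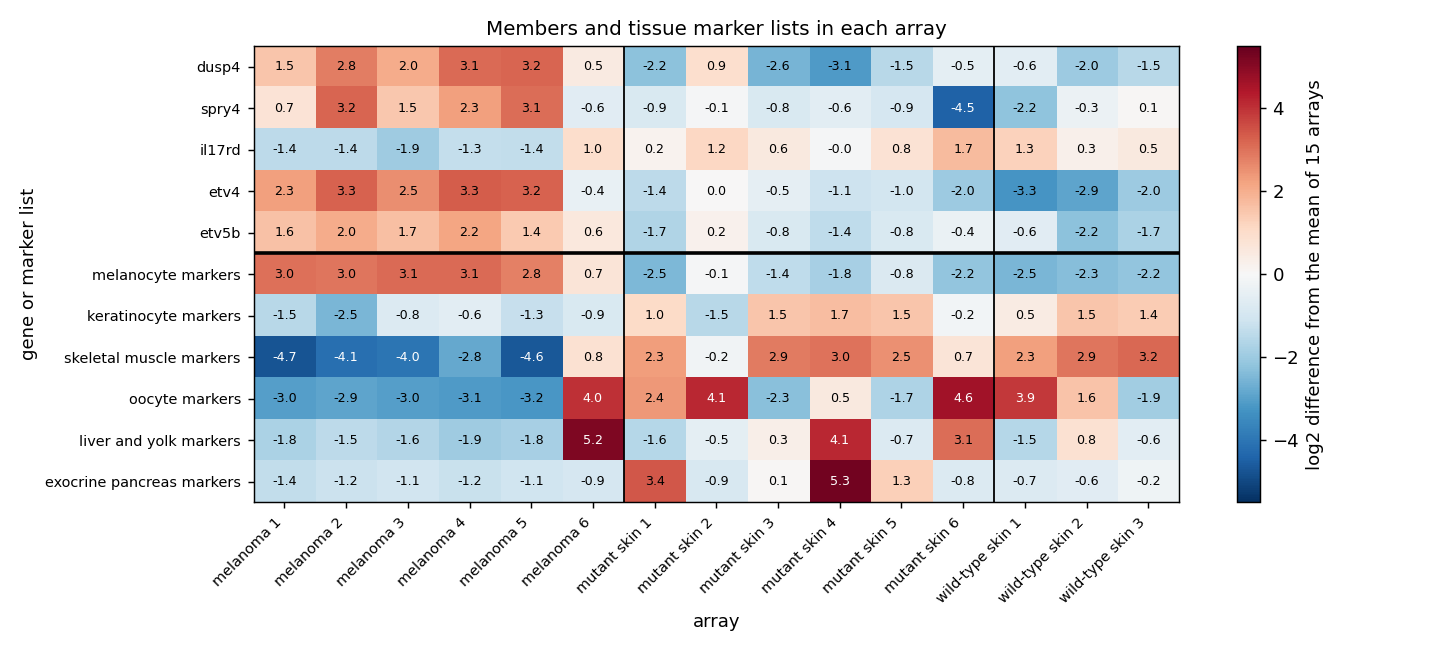
Difference of each of the 5 genes and of 6 tissue marker lists (rows) from the mean of the 15 arrays, on the log2 scale, in each array (columns; melanoma, then mutant skin, then wild-type skin). Melanoma 6 has an oocyte level of 4.03 and a melanocyte level of 0.71, and mutant skin 2 has the highest melanocyte level of the skin arrays.

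The other genes of the pathway were counted in 7 lists, which hold 72 further genes measured by 100 probe sets. Against mutant skin, 6 of these genes had a raised probe set and 1 a lowered one, and the median log2 change of the 100 probe sets was -0.01, against 0.0032 over all probe sets tested. Of the 100 probe sets 8 were raised and 1 lowered, where 6.44% of all probe sets were raised and 4.35% lowered. Without melanoma 6 the counts of genes were 13 raised and 3 lowered. They fell to 2 raised without mutant skin 1, melanoma 2 or melanoma 4 and to 3 without mutant skin 4, melanoma 3 or melanoma 5, and 7 genes were lowered without mutant skin 2.

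Among the other dual-specificity phosphatases, 0 of 6 genes passed the limma test in either direction. Their median log2 change against mutant skin was 0.49 over 8 probe sets. dusp6, whose product removes phosphate from ERK in the cytoplasm, had a log2 change of 1.41 ± 0.55 (limma adjusted p = 0.122) on one probe set and 0.67 (limma adjusted p = 0.214) on the other. It was named after its values were seen, and the first of these had 0.77 in melanoma 5 and -1.49 in melanoma 6, so that this gene too was low in melanoma 6. dusp1, named in the same way, had a change of -0.57 (limma adjusted p = 0.416).

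Of the other Sprouty, Spred and receptor inhibitors, 0 of 4 genes passed against mutant skin. spry2, a Sprouty gene chosen after its values were seen, had changes of 1.74 and 1.71 on 2 probe sets (limma adjusted p = 0.0964 and 0.139) and -0.05 on the third, which varied little over the arrays. Against wild-type skin lrig1, which encodes a membrane protein that restrains receptor tyrosine kinases, fell by 2.74 ± 0.77 on the log2 scale (limma adjusted p = 0.0293). Its mean was -0.69 ± 0.55 in melanoma (SD, n = 6), against 2.05 ± 1.18 in wild-type skin (SD, n = 3). It was lower in all melanomas than in all wild-type skin, as were 8.37% of all probe sets.

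Among the other ETS factors 2 of 8 genes rose and 1 fell against mutant skin. etv5a, the other zebrafish copy of ETV5, rose on both of its probe sets, by 1.74 ± 0.42 (limma adjusted p = 0.0178) and 1.30 ± 0.38 (limma adjusted p = 0.0407). etv4 and etv5b, also of the PEA3 group, rose too, but they were chosen with earlier results of these data known. etv1, also in the list, had no probe set with its symbol alone. gabpa, an ETS factor that binds many housekeeping promoters, rose by 0.86 ± 0.24 (limma adjusted p = 0.0336). erg, which encodes an ETS factor of endothelial cells, fell by 1.36 ± 0.25 on the log2 scale (limma adjusted p = 0.00482). Its values, between -0.75 and -0.25 in melanoma and between 0.11 and 1.37 in mutant skin, did not overlap. Such a division, with melanoma below, held for 0.961% of all probe sets. The blood vessel list, which contains erg, ran between -1.45 and 0.21 in melanoma and between -1.02 and 1.08 in mutant skin, and its part in this fall was not tested. Against wild-type skin gabpa rose (1.72 ± 0.29, limma adjusted p = 0.00231), and etv5a rose on 1 of its 2 probe sets (2.1 ± 0.52, limma adjusted p = 0.0155). The other etv5a probe set had a change of 1.02 ± 0.47 and did not pass the test (limma adjusted p = 0.171).

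Upstream of RAF, fgfr4, a receptor for FGF ligands, was the raised gene of the 15 FGF ligands and receptors, at 3.32 ± 0.87 against mutant skin (limma adjusted p = 0.0263). Its values ran between -0.72 and 5.31 in melanoma and between -1.83 and 0.94 in mutant skin, with melanoma 6 the lowest melanoma. kita, a receptor gene that marks and maintains melanocytes, rose by 2.65 ± 0.72 (limma adjusted p = 0.0309) as the raised gene of 5 in the list of other receptor tyrosine kinases. In the RAS to ERK cascade 1 of 14 genes rose: grb2a, which encodes an adaptor that links receptors to RAS. It rose by 1.61 ± 0.40 (limma adjusted p = 0.0210) and 1.44 ± 0.39 (limma adjusted p = 0.0284) on its 2 probe sets. Both had all melanomas above all mutant skin, as did 1.40% of all probe sets. Of 20 immediate-early and output genes 1 rose, mcl1a, which encodes a survival protein of the BCL2 family, at 1.03 ± 0.31 (limma adjusted p = 0.0496). ccnd1, the cyclin D1 gene, is a textbook output of ERK, and it was named after its values were seen. It had log2 changes of 2.14 (limma adjusted p = 0.0537) and 1.89 (limma adjusted p = 0.112) on its 2 probe sets. The list did not rise as a whole, with a median log2 change of -0.21 over 29 probe sets. egr1, an immediate-early gene of the list also named after its values were seen, had 0.47 and 0.14 (limma adjusted p = 0.785 and 0.947).

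**Figure D4:**
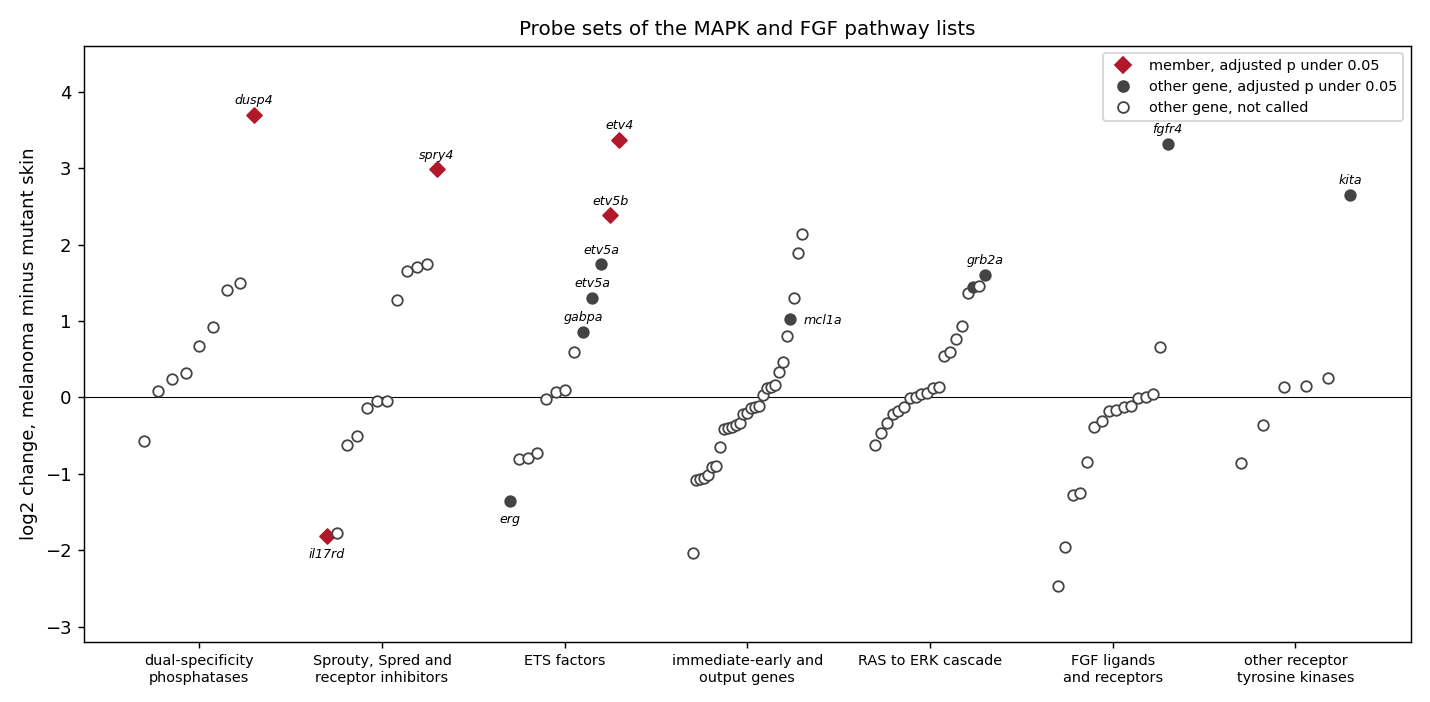
Log2 change of melanoma minus mutant skin (y axis) for every probe set of the 7 pathway lists (x axis), ordered within each list; red diamonds are dusp4, spry4, il17rd, etv4 and etv5b, and filled symbols had an adjusted p under 0.05. Most other probe sets lie open around 0, and fgfr4 (3.32) and kita (2.65) stand highest among the other genes.

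Against wild-type skin 7 genes of the lists rose and 7 fell. Of their 100 probe sets 8 were raised and 7 lowered, near the shares of all probe sets in this comparison, 7.46% raised and 6.36% lowered. FGF ligands and receptors gave 4 of the lowered genes and no raised one, with changes of -3.31 ± 1.03 for fgfr3 (limma adjusted p = 0.0455), -3.22 ± 0.69 for fgf13a (limma adjusted p = 0.00770) and -1.24 ± 0.29 for fgfr1a (limma adjusted p = 0.0126). The melanomas lay below all wild-type skin for each of these 3 genes, which were named because they were lowered. Over all probe sets 8.37% lay wholly below. In the cascade grb2a rose again, with grb2b (1.31 ± 0.35, limma adjusted p = 0.0217) and ptpn11a (1.42 ± 0.42, limma adjusted p = 0.0373), which encodes the phosphatase SHP2. kita (3.00 ± 0.88, limma adjusted p = 0.0364) and mcl1a (1.68 ± 0.39, limma adjusted p = 0.0107) rose, while erbb2 fell by 1.51 ± 0.36 on the log2 scale (limma adjusted p = 0.0129) and the ephrin receptor gene epha4a by 1.30 ± 0.34 (limma adjusted p = 0.0205). The counts depended on the wild-type arrays, with 3, 1 and 2 genes raised without wild-type skin 1, 2 and 3 and with 4, 3 and 0 lowered, and with 12 raised without melanoma 6 and 4 without melanoma 4. Between mutant skin and wild-type skin 0 of the 72 genes passed the limma test. There egr1, an immediate-early gene chosen after its values were seen, had the changes -2.73 (limma adjusted p = 0.453) and -2.55 (limma adjusted p = 0.495) on its 2 probe sets, with mutant skin 5 at the level of wild-type skin 2 and 3.

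The genes whose values were most like those of each of the 5 were found by Pearson correlation over the 15 arrays, among 10794 other probe sets with a single symbol. These correlations describe arrays that divide into melanoma and skin and share the tissue differences given above. For dusp4 the nearest were nkain1 (r = 0.962), gdf6a (0.961), a BMP ligand gene, and pttg1ipb (0.961). For spry4 they were both probe sets of inka1a (0.962 and 0.954) and dusp6 (0.936). For il17rd they were si:dkey-87o1.2 (0.964), cdcp1b (0.956) and hbegfa (0.952), which encodes an EGF receptor ligand. For etv4 they were vps29 (0.980), ppt1 (0.975) and tom1 (0.971), and for etv5b fam110b (0.967), zgc:110269 (0.967) and chd4a (0.966). Among the 5 genes themselves dusp4 and etv5b were the closest pair (0.936), followed by etv4 and etv5b (0.906). In the list for dusp4, etv5b was in place 9, and in the list for etv5b, dusp4 was in place 29. For the other pairs of the 4 raised genes the places were lower, from 108 (etv4 for etv5b) to 1557 (spry4 for etv5b). il17rd had a negative correlation with each of the other 4 genes, from -0.86 with spry4 to -0.64 with dusp4.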

How the data were processed

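The deposited values are log2 values per probe set and array. Per the submitters' processing notes they were made with GCRMA, which subtracts background and normalizes across Affymetrix arrays and whose version is not given in the sources used here. They take both signs, so their zero is set per probe set in a way the sources do not state, and -6.64, the lowest value, is a floor; no value of the 5 genes was at it. Array medians lay between -0.55 and 0.10. Of 15617 probe sets, 115 controls were left out and 15502 were tested without a filter on low values. Platform annotation gave 10795 of these exactly 1 symbol, 135 several and 4572 none, and the RefSeq gene table held the gene ID of 10711 and changed 1 symbol. No probe set was assigned to braf alone.

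A linear model for the 3 groups was fitted with limma 3.58.1 (lmFit and eBayes) in R 4.3.3 to all 15 arrays, with 12 residual degrees of freedom, and tested on simulated data. Each contrast was tested two-sided with Benjamini-Hochberg adjustment over all 15502 probe sets at 0.05. The median standard error of a change between melanoma and mutant skin was 0.393, and it was 0.482 in both comparisons with wild-type skin; the number of arrays limits the precision. The planned test of agreement between probe sets of a gene did not apply, since each of the 5 genes has 1 probe set. Marker levels are means over genes of a list, of the value minus its mean over the arrays: 7 of 14 melanocyte, 22 of 26 keratinocyte, 26 of 38 oocyte, 21 of 26 muscle, 16 of 24 liver and yolk and 12 of 15 exocrine pancreas genes were measured. Genes named are the 5, up to 3 raised and 3 lowered others per list and comparison, and the 3 nearest probe sets by correlation; other names are marked in the text. The 5 genes and the lists were chosen with earlier results of these data known. Plots were made in Python 3.11.15 with matplotlib 3.10.9. Alternatives were quantile normalization, centring, array weights, trend and robust moderation, only the arrays compared, a replicate block, each array left out, and the oocyte-high arrays left out or their level as a covariate.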

Additional observations from a re-analysis of the deposited data

Results flagged for a closer look

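An array was singled out where its gap to the nearest array of its group, divided by the range of the group, exceeded Dixon's critical value for 6 arrays. Chance singles out about 1 in 20 groups, and 3 of 10 groups of the 5 genes and 4 of 34 groups of the other named pathway probe sets were. The groups of all genes hold the same melanoma and mutant skin arrays, so they are not independent. One unusual array can be singled out for several genes, and these counts do not test for an excess over chance. il17rd was at 0.90 in melanoma 6, against -2.0 to -1.37 in the other melanomas, and etv4 at -0.90 there, against 1.77 to 2.84. spry4 was at -4.55 in mutant skin 6, against -1.0 to -0.17 in the other mutant skin arrays. kita was also lowest in mutant skin 6, at -4.01, against -1.48 to -0.23. ptpn11a was at -1.59 in melanoma 6, against -0.45 to 0.16 in the other melanomas. In melanoma 2, grb2a, on the probe set that changed less against mutant skin, was at 2.1, against -0.09 to 0.57, and epha4a at 1.05, against -0.27 to -0.02. Melanoma 6 and mutant skin 6 are 2 of the arrays with high oocyte transcripts, with oocyte levels of 4.03 and 4.61. Their part in these values was not tested.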

How the results depend on the processing

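The calls of dusp4, il17rd, etv4 and etv5b against mutant skin, and of etv4 and etv5b against wild-type skin, kept their direction and their side of the threshold under all 25 alternatives. Some alternatives could not move a change of these genes. Each gene has 1 probe set with no value at the floor, so leaving out floor probe sets or averaging probe sets left it as it was. The same holds for leaving out an array of the group outside a comparison. The other results depended on the processing, and the cause was not tested except where named. With the oocyte level as a covariate, spry4 against mutant skin was 1.97 (limma adjusted p = 0.0637) and il17rd against wild-type skin was -1.14 (limma adjusted p = 0.0541). The il17rd call against wild-type skin was also lost with arrays centred on their median (-1.72) and with only the arrays of both groups compared (-1.79, fewer arrays). spry4 against wild-type skin passed with array weights (2.32) and with the replicate block (2.92, limma adjusted p = 0.00480). Array weights, whose iteration stopped before its tolerance, gave wild-type skin 2 a weight of 56.5 and the other arrays 0.226 to 1.68, so their results against wild-type skin rest on nearly 1 array. Between mutant and wild-type skin they gave 1.82 for etv4, 1.15 for etv5b and 0.000582 for dusp4, and the block gave -0.27 for il17rd, the last 2 with signs turned and no call. Centring moved the median change of all probe sets between mutant and wild-type skin by 0.15.

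With each array left out in turn, the change lay between 2.35 and 3.45 for spry4 against mutant skin, and against wild-type skin between 1.82 and 2.98 for spry4, 3.23 and 3.94 for dusp4, and -2.19 and -1.50 for il17rd. Between mutant and wild-type skin it lay between -0.64 and 0.24 for dusp4, -1.16 and 0.17 for spry4 and -0.17 and 0.32 for il17rd, none of them called. Over all probe sets, against mutant skin, 559 (without mutant skin 1) to 2004 (without melanoma 6) were raised and 404 (without melanoma 5) to 1097 (without melanoma 6) lowered. Against wild-type skin 435 (without wild-type skin 2) to 1841 (without melanoma 6) were raised and 342 (without wild-type skin 3) to 1256 (without melanoma 6) lowered, and between mutant and wild-type skin 3 to 9 were raised and 12 to 45 lowered. Of the pathway genes 2 to 13 were raised and 1 to 7 lowered against mutant skin, and 1 to 12 raised and 0 to 9 lowered against wild-type skin.

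Against mutant skin, 2526 probe sets were raised with array weights, and 1774 were lowered with weights, 1051 with the block, 1518 without the oocyte-high arrays and 1457 with the covariate. Against wild-type skin 4684 were raised with weights and 2051 with the covariate, and 3864 were lowered with weights, 1554 without the oocyte-high arrays and 2247 with the covariate. Between mutant and wild-type skin 897 were raised with weights, 9 without the oocyte-high arrays and 28 with the covariate, and 1022 were lowered with weights, 9 with only both groups' arrays and 90 with the covariate. Pathway genes raised against mutant skin were 13 with weights, 3 with only both groups' arrays and 10 with the block. Those lowered were 7 with quantile normalization, 3 with centring, 9 with weights, 3 with the block, 9 without the oocyte-high arrays and 11 with the covariate. Against wild-type skin 19 were raised with weights and 13 with the block, and 24 were lowered with weights and 17 with the covariate. Between mutant and wild-type skin 5 were raised and 6 lowered with weights. Of 966 list counts under an alternative, 143 moved by over 1.5 times.

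Equal title numbers were not taken to pair the samples, since the labels do not say that they do and not every pair of arrays deviated together. Deviations from the group means of arrays with the same number correlated at 0.0923, -0.0748, 0.447, 0.202, 0.386 and 0.696 for melanoma and mutant skin 1 to 6. Melanoma correlated best with its own number in 3 of 6 cases. Arrays of different genotype cannot be of 1 fish, yet number 3 was also the best match there. Wild-type skin 3 correlated at 0.386 with melanoma 3 and at 0.775 with mutant skin 3. For numbers 1 and 2 the correlations with wild-type skin were -0.201 and -0.0622 for melanoma and -0.00725 and -0.418 for mutant skin. The matches therefore do not show that equal numbers mark the same fish. Of the calls of the 5 genes, the block changed that of spry4 against wild-type skin and no other.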

Other observations

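Melanoma 1 to 5 also differed among themselves, as was seen after their values were examined. dusp4 (0.50 and 1.03), spry4 (0.66 and 1.39) and etv4 (1.77 and 2.06) were lowest in melanoma 1 and 3, while melanoma 2, 4 and 5 had 1.81, 2.13 and 2.19 for dusp4, 3.13, 2.18 and 2.99 for spry4 and 2.77, 2.84 and 2.75 for etv4. fgfr4 followed the same order, with 1.76 and 2.70 in melanoma 1 and 3 and 3.79, 4.83 and 5.31 in melanoma 2, 4 and 5. The pigment enzyme gene dct ran the other way, with 6.45 and 6.20 in melanoma 1 and 3 and 2.90, 3.87 and 2.51 in melanoma 2, 4 and 5. The melanocyte genes mitfa and sox10 did not share the order of dct, and tyr shared it except that melanoma 4 lay just above melanoma 1. mitfa had 2.28 and 3.10 in melanoma 1 and 3 and 2.68, 3.36 and 2.78 in melanoma 2, 4 and 5. sox10 had 1.18 and 1.78, and 1.61, 2.00 and 1.81. tyr had 3.79 and 4.24, and 3.45, 3.82 and 3.52. etv5b did not follow the order of dusp4 and was lowest in melanoma 5 (1.19), and the melanocyte list as a whole lay between 2.75 and 3.12 in all 5. These are values of single arrays and no test was made.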
